A study of Lotus japonicus with 18 samples.

Results

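Shoots of the second Ljmyb36 mutant line of the legume Lotus japonicus (genotype label Lmyb36-2, called line 2 here) were compared with wild-type (WT) shoots after both had been grown with NaCl. The series calls these mutants knockouts of the gene for the transcription factor MYB36. The comparison took the 3 line 2 libraries and the 3 WT libraries at 100 mM NaCl, and every gene with at least 1 FPKM (fragments scaled to gene length and library size) in at least 3 libraries of the deposited table. This rule kept 20433 of 33994 entries.

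Both genotypes received NaCl in steps of 50 mM every 4 days until the nutrient solution held 100 mM, and shoots were harvested at 34 days, when the lights had been on for 4 hours. In all, 4 further groups are used beside them: line 1 (Lmyb36-1) with NaCl, and line 2, line 1 and WT kept on the same Hornum nutrient solution without NaCl, called control. Each group held 3 libraries that the labels call biological replicates, without saying whether they came from separate plants or pots, so that p-values measure the spread between these samples. The labels do not say how the lines were made, how far they are independent, or which of the MYB36-like genes is mutated.

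MYB36 is known from Arabidopsis roots, where it turns on the genes that build the Casparian strip, the lignin band that seals the cell wall space of the endodermis. Isoflavonoids are phenolic compounds made chiefly by legumes, from phenylalanine through the phenylpropanoid pathway and a chalcone, and in Lotus they lead to pterocarpans and to the isoflavan vestitol, compounds that accumulate on infection. Pathogenesis-related proteins, WRKY factors and wall-associated or cysteine-rich receptor kinases belong to the plant immune response, and SAG12 is the classic marker of leaf senescence.

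The libraries held between 42125949 and 101713201 reads recovered from FPKM and gene length, and the 6 libraries compared held between 63364603 and 81164459. The table describes 5 genes as MYB36, and the one with the highest level, LotjaGi4g1v0091600 (chromosome 4, 12168340 to 12170131), had 2.16, 3.40 and 3.01 FPKM in line 2 and 0.727, 0.987 and 0.825 FPKM in WT (limma adjusted p = 2.87e-04, log2 change 1.30 with SE 0.22). Its groups did not overlap. In control it had 4.02 ± 0.490 FPKM in line 2 and 6.36 ± 0.285 FPKM in WT (SD, n = 3 each). That difference ran the other way without passing (limma adjusted p = 0.0788, log2 change -0.61 with SE 0.22). Salt against control lowered the gene in WT (limma adjusted p = 5.44e-07, log2 change -2.35 with SE 0.22). None of the 5 MYB36 genes was lost in line 2, so transcript levels did not check the genotype label. The shoot label was met by Rubisco small subunit genes summing to 16770 to 19631 FPKM in line 2 and 18834 to 19831 FPKM in WT. Markers of root organs stayed under 1 FPKM, with a highest value of 0.257 FPKM over 4 leghemoglobin genes and of 0.906 FPKM over 5 Casparian strip membrane protein genes. The latter value came from a line 2 salt library. The 5 genes summed to 0 to 0.906 FPKM in line 2 and 0 to 0.0153 FPKM in WT with salt, and none passed the filter. The first principal component of the deviations from group means (30.8% of their variance) split the libraries into an upper set, with line 2 replicate 2 and WT replicate 1 of the salt groups, and a lower set with their other 4 salt libraries. The labels name no batch. Changes computed within the upper and within the lower set correlated at a Pearson's r of 0.818 across the 20433 genes, which are not independent replicates.

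Under salt, line 2 shoots carried higher levels of transcripts for isoflavonoid synthesis, pathogenesis-related proteins, WRKY factors, receptor kinases, glutathione S-transferases and phosphate uptake than WT shoots, and lower levels for auxin response factors. Of the 20433 genes 5125 (25.1%) were called, with 3042 (14.9%) higher and 2083 (10.2%) lower in line 2, by limma's moderated test on log2(FPKM + 0.5) with a Benjamini-Hochberg adjusted p under 0.05. The higher genes included 1212 (5.93%) with a difference of at least 2-fold, against 220 (1.08%) among the lower ones, and at least 4-fold differences were found in 388 and 10 genes. Line 2 libraries all lay above all WT libraries in 4019 genes (19.7%) and all below them in 3321 (16.3%), which includes 95.9% of the higher and 93.6% of the lower calls. The median log2 change over all genes tested was 0.00. Adding 0.5 before taking logs makes changes of low genes look smaller, and a gene near 0 in WT could pass the filter through the mutant libraries. Which direction held more calls depended on the scaling: under quantile normalization 2412 genes were higher and 2973 lower, so that 44.8% of the calls were higher in place of 59.4%. With only the 4 libraries of the lower set 1866 genes were higher and 860 lower, and with the 2 of the upper set 1697 and 838. In bulk shoots, fewer cells of a type and less RNA per cell cannot be told apart. On chromosomes 1 to 6 between 24.3% and 25.7% of the genes were called, and 1 of 102 chloroplast-encoded genes was.

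**Figure D1:**
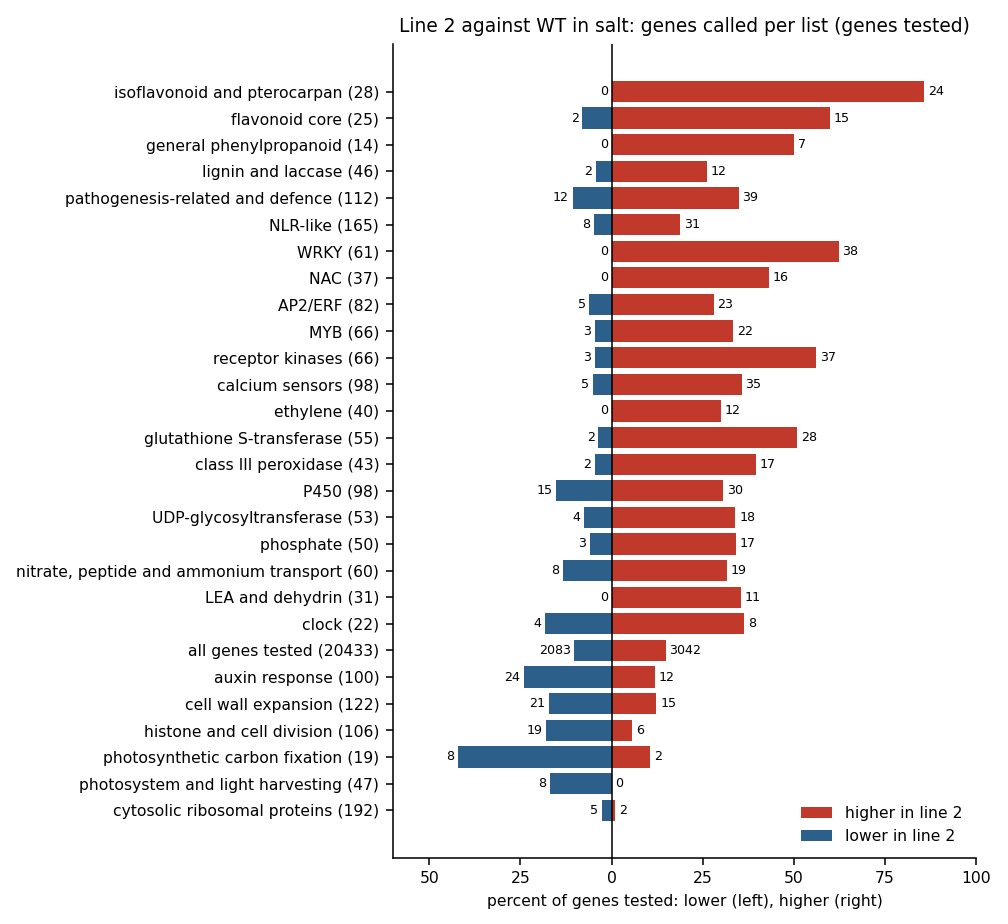
Percent of the tested genes of each list that were higher (right) or lower (left) in line 2 than in WT under salt, with the counts at the bar ends and the genes tested in brackets. The isoflavonoid list stands at 24 higher of 28 and WRKY factors at 38 of 61, while the auxin response list has more lower than higher genes.

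The isoflavonoid and pterocarpan list had 42 genes in the table, and 28 passed the filter. Of these, 24 were higher and 0 lower in line 2, with a median log2 change of 1.66 beside 0.00 over all genes. Summed over the list, the salt libraries held 870.0 to 1034 FPKM in line 2 and 150.2 to 215 FPKM in WT. The lowest line 2 sum was thus well above the highest WT sum. These pathways stand in the title of the series, so the list is not independent evidence of a direction. Leaving out any 1 of the 6 libraries gave between 23 and 24 higher genes, the lower set alone gave 20 and the upper set alone 17. Many of these genes have near-identical neighbours, among which the counting may have split reads.

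At the entry to the route, phenylalanine ammonia-lyase takes phenylalanine into phenylpropanoid metabolism. Of 8 such genes 5 were higher and 0 lower. The gene LotjaGi1g1v0690200 (chromosome 1, 125781156 to 125793805) had 13.9, 12.4 and 12.3 FPKM in line 2 and 4.28, 3.31 and 3.80 FPKM in WT. All 3 line 2 libraries were above all 3 WT libraries (limma adjusted p = 1.10e-07, log2 change 1.64 with SE 0.13). The wider general phenylpropanoid list had 7 higher and 0 lower genes of 14. Of the 7 higher genes the count was 4 without line 2 replicate 1, line 2 replicate 2 or WT replicate 2.

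Chalcone synthase, the first enzyme of flavonoid synthesis, was described for 14 tested genes, of which 11 were higher and 0 lower. LotjaGi2g1v0446700 (chromosome 2, 94134378 to 94136440) had 31.8, 23.4 and 27.8 FPKM in line 2 and 4.94, 3.06 and 2.56 FPKM in WT. Its neighbour LotjaGi2g1v0449300 was more abundant, with 75.9, 57.6 and 59.0 FPKM in line 2 and 19.2, 16.8 and 16.0 FPKM in WT. Neither gene had overlapping groups, and the first differed more (limma adjusted p = 8.03e-08, log2 change 2.84 with SE 0.22) than the second (log2 change 1.85, SE 0.14, limma adjusted p = 5.75e-08). The most abundant gene of the family, LotjaGi1g1v0635000, had 330.2, 409 and 339 FPKM in line 2 and 571, 409 and 402 FPKM in WT. Its groups overlapped, and it did not pass (log2 change -0.34, SE 0.21, limma adjusted p = 0.262). Chalcone isomerase closes the chalcone ring, and LotjaGi5g1v0359260 had 100.2, 153 and 108 FPKM in line 2 and 18.7, 9.27 and 10.8 FPKM in WT. The groups were apart (limma adjusted p = 1.58e-05, log2 change 3.21 with SE 0.40).

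The enzymes that follow in flavonol and anthocyanin synthesis behaved otherwise. None of 2 naringenin dioxygenase genes passed, and of 6 flavonoid hydroxylase genes 1 was higher and 2 were lower. The flavonol, anthocyanin and tannin branch had 3 higher genes and 1 lower of 23, with a median log2 change of -0.09. The flavonoid core list as a whole, which includes the chalcone synthases, had 15 higher and 2 lower of 25 tested and 52 in the table, and 8 were higher with the upper set alone.

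The legume-specific steps were higher at each enzyme of the route. NAD(P)H-dependent 6'-deoxychalcone synthase, also called chalcone reductase, removes an oxygen from the nascent chalcone and sets the substitution typical of legume isoflavonoids. Of its 7 tested genes 5 were higher, and LotjaGi1g1v0006500 had 34.7, 27.0 and 36.9 FPKM in line 2 and 5.39, 4.53 and 6.68 FPKM in WT. A gene of the pair on chromosome 6, LotjaGi6g1v0022500, had 39.3, 34.4 and 37.8 FPKM in line 2 and 3.73, 0.890 and 1.56 FPKM in WT. In both genes the lowest line 2 library was above the highest WT library, with log2 changes of 2.47 (SE 0.20, limma adjusted p = 1.26e-07) and 4.03 (SE 0.32, limma adjusted p = 1.26e-07).

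2-hydroxyisoflavanone synthase moves the aryl ring of a flavanone and so commits it to the isoflavonoids. All 3 of its tested genes were higher, and LotjaGi4g1v0063000 (chromosome 4, 7816673 to 7819712) had 124, 106 and 92.6 FPKM in line 2 and 19.7, 10.5 and 13.5 FPKM in WT. Its groups were far apart (limma adjusted p = 3.36e-07, log2 change 2.87 with SE 0.25). The dehydratase that completes the isoflavone was higher for 3 of 5 genes. Its gene LotjaGi5g1v0316500 had 49.5, 53.1 and 58.6 FPKM in line 2 and 16.6, 11.7 and 18.2 FPKM in WT, again without overlap (limma adjusted p = 1.10e-07, log2 change 1.78 with SE 0.14). A second one, LotjaGi1g1v0018600, was almost silent in WT, with 11.8, 9.86 and 6.17 FPKM in line 2 and 0.0403, 0 and 0.0106 FPKM in WT, and these levels rest on 2336 recovered reads over the 3 line 2 libraries and 4 over the 3 WT libraries. No fold change is given against so few reads.

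Isoflavones are then decorated and reduced. The single isoflavone 2'-hydroxylase gene tested, LotjaGi4g1v0019000, a cytochrome P450 of the vestitol route, had 109, 87.8 and 93.2 FPKM in line 2 and 20.05, 12.04 and 15.4 FPKM in WT. The groups did not overlap (limma adjusted p = 1.88e-08, log2 change 2.60 with SE 0.17). Isoflavone O-methyltransferases were higher in 3 of 3 genes. The 7-O-methyltransferase LotjaGi1g1v0513400 had 35.7, 24.5 and 28.6 FPKM in line 2 and 2.07, 0.851 and 1.08 FPKM in WT, and the 4'-O-methyltransferase LotjaGi4g1v0062900 had 98.1, 82.2 and 81.3 FPKM in line 2 and 26.4, 20.8 and 20.6 FPKM in WT. Line 2 was above WT in every library of both, with log2 changes of 4.08 (SE 0.24, limma adjusted p = 5.00e-09) and 1.93 (SE 0.16, limma adjusted p = 1.65e-07).

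The last reductions and ring closure gave some of the largest differences of the list. Vestitone reductase LotjaGi1g1v0461900 (chromosome 1, 96638096 to 96641134) had 173, 130.4 and 149 FPKM in line 2 and 17.9, 9.02 and 14.8 FPKM in WT. Pterocarpan synthase 1 LotjaGi1g1v0277900 (chromosome 1, 68067649 to 68068676) had 115, 108 and 106 FPKM in line 2 and 8.74, 2.06 and 5.76 FPKM in WT. The WT values of the second spread over a wider range, yet all stayed below 10 FPKM where line 2 was above 100. The log2 changes were 3.44 (SE 0.21, limma adjusted p = 5.95e-09) and 4.38 (SE 0.34, limma adjusted p = 8.03e-08). Both vestitone reductases, all 4 pterocarpan synthases and all 3 isoflavone reductases tested were higher.

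**Figure D2:**
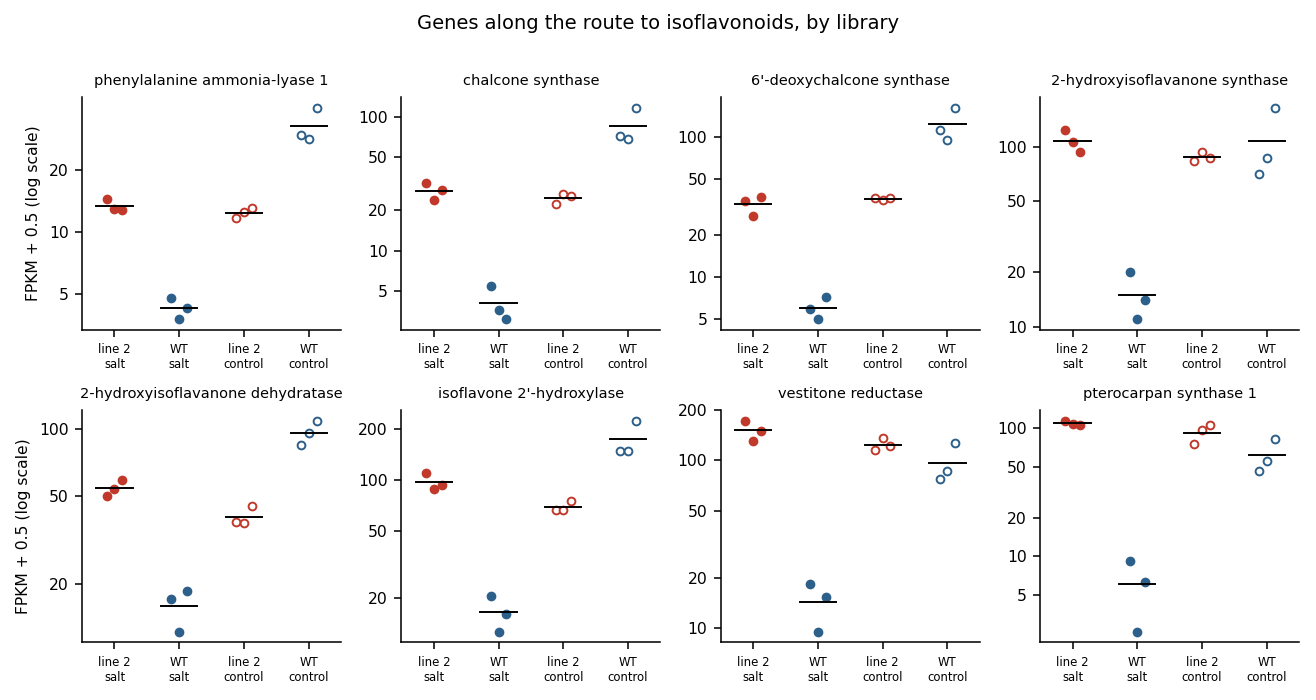
FPKM + 0.5 on a log scale for 8 genes in the order of the route, in line 2 and WT with salt (filled points) and in control (open points). Points are libraries and bars are means of 3. With salt each line 2 point is above each WT point in all 8 panels, while the WT control points lie well above the WT salt points.

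Without salt, more of these genes were lower than higher in line 2. Of the 28 isoflavonoid genes 6 were higher and 10 lower in line 2 than in WT, where of all genes 12.6% were called, 7.22% higher and 5.35% lower. Chalcone synthase LotjaGi2g1v0446700 had 24.4 ± 2.22 FPKM in line 2 and 86.2 ± 27.4 FPKM in WT without salt (SD, n = 3 each). Its control difference had the opposite sign (log2 change -1.76, SE 0.22, limma adjusted p = 3.68e-05). The list summed to 727 to 819 FPKM in line 2 and 950.3 to 1552 FPKM in WT in control. The salt response of line 2 minus that of WT, tested as an interaction, was positive for 18 of the 28 genes and negative for 0, beside 5.87% and 2.74% of all genes (8.61% in either direction). Salt against control in line 2 gave 2 higher and 0 lower of the 28 genes, where 8.66% of all genes were called, 4.24% higher and 4.42% lower. In WT salt against control gave 0 higher and 17 lower, where 16.3% of all genes were called, 6.35% higher and 9.91% lower. The salt change of chalcone synthase LotjaGi2g1v0446700 was 0.17 in line 2 (SE 0.22, limma adjusted p = 0.678) and -4.43 in WT (SE 0.22, limma adjusted p = 1.01e-09), both log2. A positive interaction can therefore stand for a gene that salt lowered in WT. It was also positive for 13 of 25 flavonoid core genes and 7 of 14 general phenylpropanoid genes. Pterocarpan synthase 1 LotjaGi1g1v0277900 had 92.3 ± 15.5 FPKM in line 2 and 61.2 ± 18.6 FPKM in WT in control (limma adjusted p = 0.272), and its interaction was 3.76 (SE 0.48, limma adjusted p = 7.80e-05).

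Lignin genes, a neighbouring use of phenylpropanoids, were counted with the laccases and had 12 higher and 2 lower of 46 tested. This was 30.4% called beside 25.1% of all genes, with a median log2 change of -0.055. The lower count was 5 without line 2 replicate 3, and quantile normalization gave 9 higher and 7 lower. Their summed level was 1042 to 1062 FPKM in line 2 and 708 to 763 FPKM in WT. A caffeoyl-CoA O-methyltransferase gene, LotjaGi2g1v0230500, had 144, 104 and 104 FPKM in line 2 and 5.10, 3.94 and 10.3 FPKM in WT. A caffeic acid 3-O-methyltransferase gene, LotjaGi1g1v0005500, had 29.4, 20.1 and 17.7 FPKM in line 2 and 1.56, 1.25 and 1.74 FPKM in WT. These methylating enzymes showed no overlap between groups, with log2 changes of 4.17 (SE 0.24, limma adjusted p = 3.17e-09) and 3.48 (SE 0.17, limma adjusted p = 8.36e-10). The laccases of this list, which polymerise lignin in the wall, had 1 higher and 1 lower of 16. The Casparian strip list, nearly all CASP-like and dirigent genes, had 10 higher and 2 lower of 38, or 31.6% called. CASP-like protein 1D2 LotjaGi4g1v0346100 had 17.5, 12.4 and 10.6 FPKM in line 2 and 0.227, 0.429 and 0.410 FPKM in WT, with no overlap (limma adjusted p = 7.40e-09, log2 change 4.01 with SE 0.25). CASP-like genes are a large family, most of which is not known to act in the endodermis.

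Defence genes took up much of the named top of the comparison. The pathogenesis-related and defence list had 39 higher and 12 lower of 112 tested, and its median log2 change was 0.00. Its summed level was 5762 to 6102 FPKM in line 2 and 1982 to 2387 FPKM in WT, so a minority of its members carried the difference. Chitinases, which cut fungal cell walls, had 8 higher and 0 lower of 12. Thaumatin-like proteins had 5 and 0 of 16, and class-10 pathogenesis-related proteins 5 and 0 of 5. Of 45 genes for beta-1,3-glucanases 8 were higher and 7 lower, a family that also acts in cell division and pollen.

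The acidic endochitinase gene LotjaGi5g1v0294000 (chromosome 5, 61134300 to 61136122) had 227, 229 and 165 FPKM in line 2 and 3.68, 2.62 and 1.99 FPKM in WT. The beta-1,3-glucanase gene LotjaGi3g1v0535300 had 107, 125 and 123.1 FPKM in line 2 and 2.74, 2.22 and 2.35 FPKM in WT, and the thaumatin-like 1a gene LotjaGi1g1v0685100 had 826, 771 and 601 FPKM in line 2 and 22.8, 14.9 and 29.9 FPKM in WT. The WT libraries of the first 2 genes all lay below 4 FPKM, and none of the 3 genes had overlapping groups. Their log2 changes were 6.005 (SE 0.32, limma adjusted p = 1.77e-09), 5.34 (SE 0.17, limma adjusted p = 1.53e-11) and 5.04 (SE 0.34, limma adjusted p = 2.15e-08). Pathogenesis-related protein 1 LotjaGi6g1v0345200, a marker of salicylic acid responses, had 160.5, 125 and 125 FPKM in line 2 and 2.88, 0.424 and 7.51 FPKM in WT. Here the WT libraries spread over more than an order of magnitude, all below the line 2 libraries (limma adjusted p = 1.97e-06, log2 change 5.54 with SE 0.57). PR-4A LotjaGi1g1v0782200 had 250.0, 199.5 and 199.97 FPKM in line 2 and 5.28, 3.04 and 5.87 FPKM in WT, also without overlap (limma adjusted p = 2.67e-08, log2 change 5.41 with SE 0.38). A further thaumatin-like gene, LotjaGi1g1v0685000, rested on 2583 recovered reads over the 3 line 2 libraries and 3 over the 3 WT libraries, and no fold change is given for it.

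Line 2 already had more transcripts of several of these genes than WT without salt, and for some the log2 difference was larger with salt. The endochitinase LotjaGi5g1v0294000 had 287 ± 39.7 FPKM in line 2 and 47.7 ± 16.5 FPKM in WT in control, and its interaction was 3.38 (SE 0.46, limma adjusted p = 1.46e-04). The beta-1,3-glucanase LotjaGi3g1v0535300 had 151 ± 6.603 FPKM in line 2 and 15.4 ± 2.95 FPKM in WT in control, with an interaction of 2.07 (SE 0.24, limma adjusted p = 3.73e-05). Salt against control lowered both genes in WT, with log2 changes of -3.85 and -2.43 (limma adjusted p = 2.07e-07 and 3.58e-08). In line 2 these changes were -0.48 and -0.36 and did not pass (limma adjusted p = 0.392 and 0.210). For PR-4A the interaction did not pass (1.22, SE 0.53, limma adjusted p = 0.193). Over the list the interaction was positive for 25 and negative for 2 of 112 genes.

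Genes of senescence and protein breakdown included the gene with the largest log2 change named here. SAG12 LotjaGi6g1v0324100 (chromosome 6, 63966317 to 63968411), a cysteine protease of senescing leaves, had 133, 202 and 169 FPKM in line 2 and 1.85, 0.870 and 1.62 FPKM in WT. No WT library reached 2 FPKM (limma adjusted p = 6.42e-10, log2 change 6.45 with SE 0.31). In control it had 233 ± 22.9 FPKM in line 2 and 4.42 ± 2.62 FPKM in WT, and its interaction did not pass (limma adjusted p = 0.339). SAG101 LotjaGi2g1v0250800, a lipase-like protein of Arabidopsis immune signalling, had 8.93, 9.51 and 10.1 FPKM in line 2 and 0.699, 0.558 and 0.118 FPKM in WT, without overlap (limma adjusted p = 3.35e-08, log2 change 3.44 with SE 0.25). Cathepsin B-like protease 2 LotjaGi1g1v0753100 differed less, with 27.2, 31.0 and 30.7 FPKM in line 2 and 12.4, 12.3 and 13.8 FPKM in WT (limma adjusted p = 5.94e-08, log2 change 1.18 with SE 0.09). The whole list of papain proteases, chlorophyll breakdown and senescence had 17 higher and 7 lower of 43. Within it chlorophyll breakdown genes had 6 higher and 1 lower of 11. A gene described as a senescence regulator, LotjaGi6g1v0294800, went the other way, with 14.8, 14.5 and 10.5 FPKM in line 2 and 69.0, 57.1 and 49.3 FPKM in WT (limma adjusted p = 6.60e-05, log2 change -2.10 with SE 0.30).

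**Figure D3:**
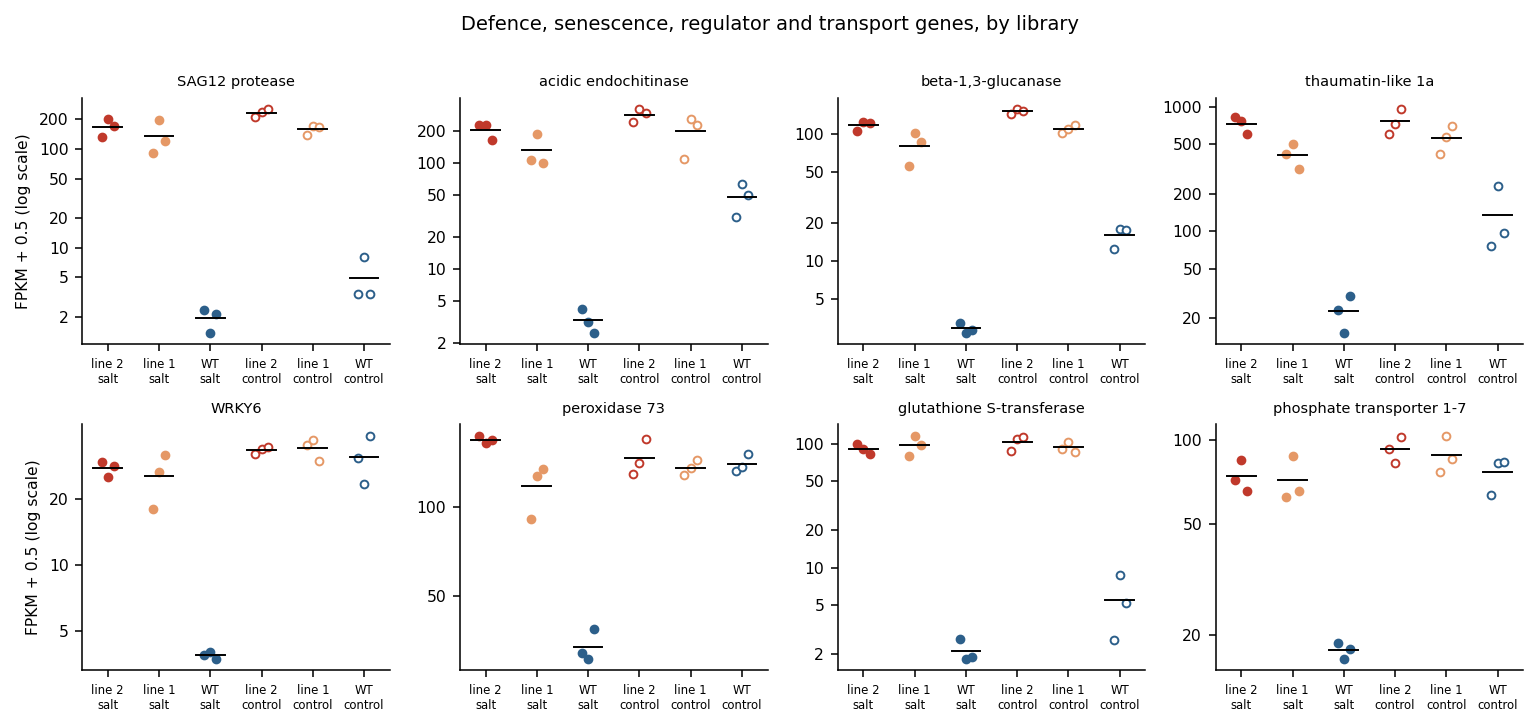
FPKM + 0.5 on a log scale for 8 genes in the 6 groups of the study, with salt groups filled and control groups open; points are libraries and bars means of 3. The 3 WT salt points are the lowest of their panel in every gene shown except the glutathione S-transferase, where 1 WT control point is as low.

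Transcription factors of the WRKY family, regulators of immunity and senescence, had 38 higher and 0 lower of 61 tested and 83 in the table, with a median log2 change of 1.02. WRKY6 LotjaGi6g1v0292300, which acts in senescence and phosphate responses in Arabidopsis, had 28.7, 24.5 and 27.6 FPKM in line 2 and 3.42, 3.54 and 3.23 FPKM in WT. WRKY28 LotjaGi4g1v0025500 had 6.997, 7.68 and 8.34 FPKM in line 2 and 0.482, 0.661 and 0.146 FPKM in WT, and WRKY50 LotjaGi5g1v0047800 had 8.20, 9.16 and 9.60 FPKM in line 2 and 0.107, 0.402 and 0 FPKM in WT. WT libraries were below 1 FPKM for the last 2 and between 3 and 4 FPKM for WRKY6, and no groups overlapped. The log2 changes were 2.81 (SE 0.18, limma adjusted p = 1.22e-08), 3.17 (SE 0.20, limma adjusted p = 1.27e-08) and 3.87 (SE 0.27, limma adjusted p = 2.68e-08). Summed WRKY transcripts were 464 to 531 FPKM in line 2 and 220.0 to 262 FPKM in WT with salt, and 502 to 549 FPKM in line 2 and 509.7 to 622 FPKM in WT in control. In control 14 WRKY genes were higher and 9 lower in line 2, and the interaction was positive for 21 and negative for 0. Salt against control gave 1 higher and 30 lower WRKY genes in WT, and 1 and 4 in line 2. Over all genes 6.35% were higher and 9.91% lower in WT, and 4.24% and 4.42% in line 2. WRKY6 had 32.7 ± 1.10 FPKM in line 2 and 30.3 ± 7.64 FPKM in WT in control (limma adjusted p = 0.692). Without any 1 of the 6 libraries between 35 and 38 WRKY genes were higher, and the lower set gave 30.

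NAC factors, many of which act in senescence and drought, had 16 higher and 0 lower of 37, and 13 and 0 in control. The called share under salt was 43.2% for NAC, 34.1% for AP2/ERF, 37.9% for MYB and 36.7% for bZIP factors. Of all genes 25.1% were called under salt, 14.9% higher and 10.2% lower. In control 7.22% of all genes were higher and 5.35% lower. JA2L LotjaGi3g1v0077100, named after a tomato factor of stomatal opening, had 21.6, 24.0 and 22.7 FPKM in line 2 and 3.14, 3.07 and 4.38 FPKM in WT (limma adjusted p = 1.08e-06, log2 change 2.54 with SE 0.25). NAC47 LotjaGi1g1v0639500 had 5.16, 4.998 and 5.74 FPKM in line 2 and 0.182, 0.119 and 0.592 FPKM in WT (limma adjusted p = 5.94e-08, log2 change 2.91 with SE 0.22). AP2/ERF factors had 23 higher and 5 lower of 82, with ERF053 LotjaGi3g1v0443000 at 5.28, 4.00 and 3.62 FPKM in line 2 and 0.347, 0.384 and 0.163 FPKM in WT (limma adjusted p = 1.58e-06, log2 change 2.59 with SE 0.26). As single libraries were left out, the lower count was 1 without WT replicate 3, 2 without line 2 replicate 2 or line 2 replicate 3 and 3 without WT replicate 2. MYB factors had 22 higher and 3 lower of 66. MYB123 LotjaGi3g1v0398400, whose Arabidopsis namesake controls tannin synthesis, had 15.7, 11.9 and 14.5 FPKM in line 2 and 1.74, 1.47 and 1.43 FPKM in WT, and MYB96 LotjaGi1g1v0219300, a regulator of wax and drought responses in Arabidopsis, had 15.7, 13.8 and 13.8 FPKM in line 2 and 3.22, 2.78 and 4.59 FPKM in WT. Both lacked overlap, with log2 changes of 2.83 (SE 0.14, limma adjusted p = 9.23e-10) and 1.91 (SE 0.18, limma adjusted p = 9.12e-07). bZIP factors were mixed, with 7 higher and 4 lower of 30. The number of lower genes was 2 without line 2 replicate 1, line 2 replicate 3 or WT replicate 1.

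Receptors and calcium signalling genes followed. Of 66 wall-associated, cysteine-rich and lectin receptor kinases 37 were higher and 3 lower, with a median log2 change of 0.70, and the lower set alone gave 24 higher and 0 lower. The interaction was positive for 22 of them and negative for 0. Salt against control gave 2 higher and 34 lower of the 66 in WT, and 3 and 6 in line 2. Of all genes 9.91% were lower with salt in WT and 4.42% in line 2. The cysteine-rich receptor kinase gene LotjaGi5g1v0318700 had 3.59, 4.97 and 5.13 FPKM in line 2 and 0.443, 0.529 and 0.05001 FPKM in WT (limma adjusted p = 7.13e-07, log2 change 2.63 with SE 0.25), and in control 6.91 ± 1.38 FPKM in line 2 and 7.69 ± 1.34 FPKM in WT. The wall-associated kinase gene LotjaGi1g1v0270300 had 5.26, 5.77 and 2.91 FPKM in line 2 and 0.0291, 0 and 0 FPKM in WT, on 2179 recovered reads over the 3 line 2 libraries and 4 over the 3 WT libraries. NLR-like genes, the intracellular immune receptors, had 31 higher and 8 lower of 165, or 23.6% called beside 25.1% of all genes. The higher count was 16 with the lower set and 13 with the upper set. This lower count became 3 without WT replicate 2, 4 without line 2 replicate 2 and 5 without line 2 replicate 3. One of them, an assembled transcript described as Pik-1 (chromosome 6, 59705075 to 59707408), had 20.1, 23.2 and 19.7 FPKM in line 2 and 0.191, 0.272 and 0.0865 FPKM in WT (limma adjusted p = 2.89e-09, log2 change 4.98 with SE 0.28). Calcium sensor genes had 35 higher and 5 lower of 98. Of the 5 lower genes the count was 3 without line 2 replicate 2. CML41 LotjaGi4g1v0114400 had 7.10, 11.9 and 11.1 FPKM in line 2 and 0.981, 0.649 and 0.407 FPKM in WT, and the kinase CIPK23 LotjaGi6g1v0210400, which tunes potassium and nitrate uptake in Arabidopsis, had 34.9, 35.0 and 34.0 FPKM in line 2 and 14.1, 15.7 and 16.8 FPKM in WT. Both were apart from WT in all libraries, with log2 changes of 3.16 (SE 0.24, limma adjusted p = 6.06e-08) and 1.13 (SE 0.09, limma adjusted p = 8.03e-08).

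Among detoxification and redox enzymes more genes were higher than lower, as over all genes (14.9% higher and 10.2% lower). The called share was 54.5% for glutathione S-transferases and 44.2% for class III peroxidases, beside 25.1% of all genes. Glutathione S-transferases, which couple glutathione to toxic compounds, had 28 higher and 2 lower of 55, and 22 and 1 in control. With the upper set alone 15 were higher under salt. The gene LotjaGi5g1v0258300 (chromosome 5, 56684049 to 56685792) had 101.1, 90.8 and 83.0 FPKM in line 2 and 2.12, 1.30 and 1.39 FPKM in WT. Line 2 libraries were at 83 FPKM or more where no WT library reached 3 (limma adjusted p = 1.74e-09, log2 change 5.47 with SE 0.29). It stood at 104 ± 14.9 FPKM in line 2 and 4.98 ± 3.06 FPKM in WT in control, and its interaction did not pass (limma adjusted p = 0.142). Class III peroxidases, secreted enzymes that use hydrogen peroxide in the wall, had 17 higher and 2 lower of 43. Peroxidase 73 LotjaGi4g1v0096700 had 173, 163 and 167 FPKM in line 2 and 31.7, 30.2 and 38.2 FPKM in WT, without overlap (limma adjusted p = 3.81e-09, log2 change 2.32 with SE 0.13). Its control levels were 146 ± 20.5 FPKM in line 2 and 139 ± 9.79 FPKM in WT, and its interaction was 2.26 (SE 0.19, limma adjusted p = 2.22e-06).

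Of the core antioxidant enzymes 6 were higher and 1 lower of 31, or 22.6% called beside 25.1% of all genes. As single libraries were left out, the higher count was 2 without WT replicate 1 or WT replicate 2. Glutathione peroxidase 2 LotjaGi4g1v0458000 had 78.9, 77.5 and 86.2 FPKM in line 2 and 31.7, 30.5 and 33.7 FPKM in WT (limma adjusted p = 1.05e-07, log2 change 1.33 with SE 0.10). Cytochrome P450 genes named by family had 30 higher and 15 lower of 98, and their summed level was 2710.5 to 2842 FPKM in line 2 and 3065 to 3161 FPKM in WT. The number of lower genes was 9 without line 2 replicate 3. P450 84A1 LotjaGi2g1v0384500, the ferulate 5-hydroxylase of lignin synthesis in Arabidopsis, had 19.1, 19.4 and 16.8 FPKM in line 2 and 2.93, 2.20 and 3.90 FPKM in WT (limma adjusted p = 6.57e-08, log2 change 2.46 with SE 0.19). UDP-glycosyltransferases, which attach sugars to hormones and phenolics, had 18 higher and 4 lower of 53. This lower count became 2 without WT replicate 3.

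Hormone genes differed by pathway. The called share was 30% for ethylene, 29.8% for jasmonate and 53.8% for abscisic acid genes. Of all genes 25.1% were called, 14.9% higher and 10.2% lower. Ethylene genes had 12 higher and 0 lower of 40. ACC synthase LotjaGi4g1v0430100, the controlling step of ethylene synthesis, had 24.4, 27.0 and 37.2 FPKM in line 2 and 7.13, 5.19 and 5.81 FPKM in WT (limma adjusted p = 7.51e-08, log2 change 2.19 with SE 0.17). Jasmonate genes were mixed at 10 higher and 7 lower of 57, with the 13-lipoxygenase LotjaGi3g1v0413600 at 33.1, 27.3 and 31.0 FPKM in line 2 and 12.3, 11.2 and 15.4 FPKM in WT (limma adjusted p = 1.41e-06, log2 change 1.21 with SE 0.12). Abscisic acid genes had 7 higher and 7 lower of 26. Of the 7 higher genes the count was 2 without line 2 replicate 3, 3 without WT replicate 1 or WT replicate 2 and 4 without line 2 replicate 2. As single libraries were left out, the lower count was 4 without line 2 replicate 3, WT replicate 1, WT replicate 2 or WT replicate 3. NCED1 LotjaGi3g1v0145900, the rate-controlling enzyme of abscisic acid synthesis, had 20.7, 27.3 and 19.9 FPKM in line 2 and 3.56, 5.64 and 5.37 FPKM in WT (limma adjusted p = 3.90e-05, log2 change 2.12 with SE 0.29), and in control 32.8 ± 3.41 FPKM in line 2 and 10.02 ± 3.22 FPKM in WT. The receptor PYL4 LotjaGi1g1v0074000 was lower, with 1.88, 2.22 and 3.20 FPKM in line 2 and 8.005, 5.30 and 5.36 FPKM in WT (limma adjusted p = 2.13e-04, log2 change -1.20 with SE 0.19).

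Lists of genes often tied to salt and drought tolerance are given beside the 25.1% called over all genes. The called share was 35.5% for LEA proteins and dehydrins and 25.6% for compatible solutes. It was 18.6% for sodium, potassium and chloride transport and 20.7% for aquaporins. LEA proteins and dehydrins, which protect proteins and membranes in drying cells, had 11 higher and 0 lower of 31, and 11 and 1 in control. Lea14 LotjaGi1g1v0481800 had 35.0, 36.3 and 44.8 FPKM in line 2 and 19.4, 19.4 and 19.4 FPKM in WT (limma adjusted p = 5.65e-07, log2 change 0.97 with SE 0.09). The desiccation gene PCC13-62 LotjaGi6g1v0261400 rested on 1450 recovered reads over the 3 line 2 libraries and 1 over the 3 WT libraries, with 5.70, 6.86 and 2.66 FPKM in line 2 and 0.0119, 0 and 0 FPKM in WT. Compatible solute genes had 5 higher and 5 lower of 39. The number of lower genes was 2 without line 2 replicate 3 or WT replicate 2 and 3 without line 2 replicate 2. Proline dehydrogenase 1 LotjaGi1g1v0523800, the first enzyme of proline breakdown, had 31.6, 22.8 and 29.8 FPKM in line 2 and 74.6, 72.6 and 62.1 FPKM in WT (limma adjusted p = 3.97e-06, log2 change -1.31 with SE 0.14). Its control levels ran the other way, at 66.2 ± 6.28 FPKM in line 2 and 49.7 ± 3.22 FPKM in WT, without passing (limma adjusted p = 0.0750). Sodium, potassium and chloride transport had 7 higher and 4 lower of 59, and 4 higher and 8 lower under quantile normalization. This higher count became 4 without WT replicate 2. The chloroplast potassium antiporter KEA3 LotjaGi4g1v0042600 had 36.6, 28.3 and 33.5 FPKM in line 2 and 51.7, 50.5 and 53.9 FPKM in WT (limma adjusted p = 1.13e-04, log2 change -0.66 with SE 0.10). Aquaporins had 2 higher and 4 lower of 29, among the lower ones NIP2-1 LotjaGi1g1v0503000 at 8.31, 8.42 and 10.9 FPKM in line 2 and 18.5, 19.9 and 22.7 FPKM in WT (limma adjusted p = 9.36e-05, log2 change -1.11 with SE 0.16). Of the 4 lower genes the count was 2 without line 2 replicate 3.

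Phosphate genes had 17 higher and 3 lower of 50, at summed levels of 831 to 849.9 FPKM in line 2 and 562 to 592 FPKM in WT. With the upper set alone 9 were higher and 0 lower, and under quantile normalization 6 were lower. SPX3 LotjaGi3g1v0206000, which reports the phosphate status of the cell in Arabidopsis and rice, had 51.7, 44.0 and 54.1 FPKM in line 2 and 2.30, 1.17 and 5.53 FPKM in WT. Phosphate transporter 1-7 LotjaGi1g1v0709800 had 71.8, 84.6 and 65.1 FPKM in line 2 and 18.2, 15.9 and 17.3 FPKM in WT, and a gene described as a probable inactive purple acid phosphatase, PAP29 LotjaGi3g1v0405700, had 30.9, 30.4 and 29.7 FPKM in line 2 and 7.93, 5.79 and 6.96 FPKM in WT. Line 2 was above WT in every library of the 3 genes, and the SPX3 values of WT were uneven. The log2 changes were 4.05 (SE 0.38, limma adjusted p = 7.78e-07), 2.07 (SE 0.15, limma adjusted p = 4.59e-08) and 2.07 (SE 0.15, limma adjusted p = 4.26e-08). The transporter stood at 92.6 ± 10.1 FPKM in line 2 and 76.2 ± 11.5 FPKM in WT in control, and its interaction was 1.79 (SE 0.21, limma adjusted p = 4.24e-05). Over the list 10 genes were higher and 0 lower in control, beside 7.22% and 5.35% of all genes. Control sums were 1067 to 1206 FPKM in line 2 and 764 to 888 FPKM in WT. The interaction was positive for 5 of the 50 and negative for 0, beside 5.87% and 2.74% of all genes. Salt against control gave 4 higher and 18 lower in WT, and 3 and 10 in line 2. Of all genes 9.91% were lower with salt in WT and 4.42% in line 2.

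Nitrate, peptide and ammonium transporters had 19 higher and 8 lower of 60, or 45% called beside 25.1% of all genes. As single libraries were left out, the higher count was 12 without line 2 replicate 2. The number of lower genes was 5 without line 2 replicate 2 or line 2 replicate 3. NPF2.13 LotjaGi4g1v0183700, which remobilises nitrate from old leaves in Arabidopsis, had 48.6, 54.5 and 63.5 FPKM in line 2 and 15.8, 22.2 and 29.5 FPKM in WT (limma adjusted p = 1.74e-05, log2 change 1.32 with SE 0.17). The ammonium transporter gene LotjaGi5g1v0205600 had 13.6, 13.99 and 10.1 FPKM in line 2 and 50.8, 27.6 and 24.9 FPKM in WT (limma adjusted p = 0.00815, log2 change -1.36 with SE 0.34). Sugar transporters and invertases had 12 higher and 8 lower of 53 (37.7% called), and 11 of each under quantile normalization. This lower count became 3 without line 2 replicate 3, 4 without line 2 replicate 2 and 5 without WT replicate 1, WT replicate 2 or WT replicate 3. The hexose importer STP13 LotjaGi2g1v0456100, tied to defence in Arabidopsis, had 47.3, 58.5 and 56.3 FPKM in line 2 and 7.82, 5.80 and 10.5 FPKM in WT (limma adjusted p = 3.71e-08, log2 change 2.71 with SE 0.19). The exporter SWEET10 LotjaGi1g1v0335600 had 63.2, 128 and 98.7 FPKM in line 2 and 1.69, 4.23 and 2.79 FPKM in WT (limma adjusted p = 2.70e-06, log2 change 4.85 with SE 0.51). Iron genes had 3 higher and 3 lower of 31, or 19.4% called beside 25.1% of all genes. Ferritin-3 LotjaGi3g1v0197600, the plastid iron store, had 100.5, 126 and 150.1 FPKM in line 2 and 191, 185 and 125 FPKM in WT with salt. Its groups overlapped (limma adjusted p = 0.152), in contrast to 971 ± 98.4 FPKM in line 2 and 208 ± 37.9 FPKM in WT in control (log2 change 2.23, SE 0.20, limma adjusted p = 8.54e-07).

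With all libraries, the auxin response, histone and cell division, and cell wall expansion lists held more lower than higher genes. Of all genes 14.9% were higher and 10.2% lower. The auxin response list had 36% called beside 25.1% of all genes. The auxin response list held 12 higher and 24 lower of 100, with a median log2 change of -0.24. The auxin response factors, which bind auxin-regulated promoters, had 2 higher and 12 lower of 29, while the small auxin-up genes had 7 and 6 of 46. ARF8 LotjaGi1g1v0101700 had 9.25, 6.601 and 8.16 FPKM in line 2 and 14.2, 12.8 and 12.3 FPKM in WT (limma adjusted p = 1.70e-04, log2 change -0.69 with SE 0.11). GH3.10 LotjaGi3g1v0442000 had 5.41, 4.80 and 4.03 FPKM in line 2 and 10.3, 8.08 and 8.51 FPKM in WT (limma adjusted p = 2.29e-04, log2 change -0.85 with SE 0.14). In control 18 genes of the whole auxin response list were higher and 7 lower in line 2, beside 7.22% and 5.35% of all genes. The interaction was positive for 2 and negative for 10, beside 5.87% and 2.74% of all genes. Small auxin-up genes had 16 higher and 1 lower in control, and interactions positive for 1 and negative for 8. The auxin response factors had 0 higher and 4 lower in control, and interactions positive for 1 and negative for 0.

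Histone and cell division genes had 6 higher and 19 lower of 106, or 23.6% called beside 25.1% of all genes, and their summed levels overlapped at 3930.5 to 4691 FPKM in line 2 and 4243 to 4994 FPKM in WT. With the upper set alone 10 were lower. The lower ones included cyclins, with 2 higher and 9 lower of 38, and replication licensing factors, with 0 and 5 of 7. Histones had 2 higher and 0 lower of 31. MCM6 LotjaGi6g1v0247200, part of the helicase that opens DNA for replication, had 6.15, 5.15 and 4.15 FPKM in line 2 and 9.44, 9.29 and 9.12 FPKM in WT (limma adjusted p = 9.36e-05, log2 change -0.81 with SE 0.12). Genes of cell wall expansion had 15 higher and 21 lower of 122, or 29.5% called. With the lower set alone 9 of them were higher and 8 lower. Of the 15 higher genes the count was 9 without line 2 replicate 3. As single libraries were left out, the lower count was 13 without WT replicate 3. Expansin-A10 LotjaGi6g1v0042100, which loosens growing walls, had 19.7, 28.01 and 24.1 FPKM in line 2 and 60.5, 53.0 and 50.5 FPKM in WT (limma adjusted p = 1.27e-05, log2 change -1.19 with SE 0.14).

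Photosystem and light-harvesting genes had 0 higher and 8 lower of 47, or 17.0% called beside 25.1% of all genes. Their median log2 change was -0.26, and their summed levels were 56131 to 66920 FPKM in line 2 and 68849 to 84039 FPKM in WT. The lower count ranged from 1 to 20 over the alternatives. The number of lower genes was 3 without WT replicate 1, 4 without line 2 replicate 1 or WT replicate 3 and 5 without line 2 replicate 2 or line 2 replicate 3. Carbon fixation genes had 2 higher and 8 lower of 19. This lower count became 5 without line 2 replicate 1. Rubisco activase LotjaGi6g1v0063500, which keeps Rubisco active, had 1969, 2223 and 1937 FPKM in line 2 and 3814, 2942 and 3048 FPKM in WT (limma adjusted p = 0.00220, log2 change -0.67 with SE 0.14). That call was lost with the upper set alone (limma adjusted p = 0.0519). Cytosolic ribosomal protein genes had 2 higher and 5 lower of 192.

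Further list counts moved by more than 1.5 times in these settings, and the larger ones are given here. With the lower set alone the higher genes numbered 22 among calcium sensors, 11 among nitrate, peptide and ammonium transporters, 9 in cell wall expansion, 5 among jasmonate genes and 4 in the Casparian strip list, and the lower genes numbered 11 in the auxin response list and 8 in cell wall expansion. With the upper set alone the higher genes numbered 21 among calcium sensors, 10 in the list of papain proteases, chlorophyll breakdown and senescence and 11 among UDP-glycosyltransferases. The lower genes then numbered 15 in the auxin response list, 5 in the defence list, 6 among P450 genes and 2 in carbon fixation. Under quantile normalization lower genes numbered 9 among aquaporins, 8 among calcium sensors, 8 among AP2/ERF factors and 3 among ethylene genes.

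Other lower genes with a description were spread over functions. The GDSL esterase gene CPRD49 LotjaGi1g1v0441400 (chromosome 1, 93797503 to 93800819) had 111, 105 and 106 FPKM in line 2 and 471, 400.1 and 423 FPKM in WT. Phosphoethanolamine N-methyltransferase LotjaGi2g1v0196500, which makes phosphocholine for membranes and betaine, had 16.3, 15.5 and 16.4 FPKM in line 2 and 45.2, 51.6 and 48.3 FPKM in WT. Neither had overlapping groups, with log2 changes of -1.999 (SE 0.12, limma adjusted p = 5.33e-09) and -1.56 (SE 0.17, limma adjusted p = 3.14e-06). An assembled transcript described as ABI3 (chromosome 4, 72072869 to 72077326), a seed factor of abscisic acid response, had 2.44, 2.92 and 3.13 FPKM in line 2 and 8.45, 12.1 and 7.24 FPKM in WT (limma adjusted p = 3.66e-05, log2 change -1.53 with SE 0.21). A gene described as FAR1 LotjaGi6g1v0185700, a factor of phytochrome A signalling in Arabidopsis, had 2.13, 0.856 and 1.25 FPKM in line 2 and 6.79, 8.62 and 10.3 FPKM in WT (limma adjusted p = 2.15e-05, log2 change -2.28 with SE 0.29).

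The difference between line 2 and WT under salt can be set beside that in control, since the 2 comparisons share no library. Of the 3042 genes higher with salt, 967 (31.8%) were also higher in control, which is 65.5% of the 1476 genes higher in control, and 203 (6.67%) were lower in control. Of the 2083 genes lower with salt, 306 (14.7%) were also lower in control, which is 28% of the 1094 genes lower there, and 52 (2.5%) were higher. Across the 20433 genes, which are not independent, the log2 changes of the 2 comparisons had a Pearson's r of 0.503. The interaction, the salt response of line 2 minus that of WT, was positive in 1199 genes (5.87%) and negative in 560 (2.74%). Of the 1199 genes, salt against control in WT was called lower in 1013 (84.5%) and higher in 2. Of the 560 genes it was called higher in 327 (58.4%) and lower in 0. Over all genes these WT calls were 9.91% lower and 6.35% higher. The interaction contains the WT salt change, so the shares are not independent of it.

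**Figure D4:**
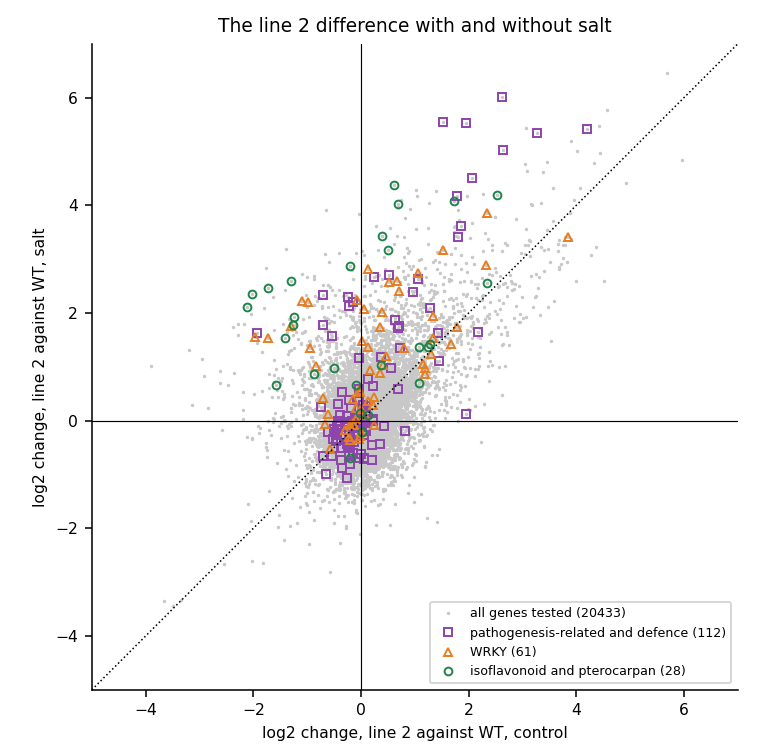
Log2 change of line 2 against WT with salt (vertical) against the same in control (horizontal), 1 point for each of 20433 genes, with 3 lists marked and the line of equal change dotted. Most isoflavonoid genes lie above the horizontal axis on both sides of the vertical one, and defence genes with the largest changes lie at the upper right.

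The 6 highest interactions by the naming rule were in ERF098 and in phenylpropanoid and isoflavonoid genes. ERF098 LotjaGi5g1v0180400, an ethylene-responsive factor, had 2.25, 1.60 and 1.37 FPKM in line 2 and 0.515, 1.11 and 0.285 FPKM in WT with salt. Its control level was 1.16 ± 0.273 FPKM in line 2 and 24.5 ± 5.74 FPKM in WT, and the 3 WT control libraries were far above all others (interaction 4.93, SE 0.36, limma adjusted p = 4.53e-07). Among the 6 lowest, ferritin-3 stood at -2.64 (SE 0.28, limma adjusted p = 1.43e-05). MYB48 LotjaGi2g1v0369100 had 14.9, 13.6 and 16.8 FPKM in line 2 and 34.1, 35.7 and 35.8 FPKM in WT with salt, and 21.6 ± 0.776 FPKM in line 2 and 14.2 ± 1.76 FPKM in WT in control. Its sign thus differed between conditions (interaction -1.79, SE 0.17, limma adjusted p = 3.67e-06).

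Line 1 gave 2293 genes higher (11.2%) and 974 lower (4.77%) than WT under salt (16% in all), against the same WT libraries. The isoflavonoid list had 24 higher and 0 lower genes in line 2 and 21 and 0 in line 1, WRKY factors 38 and 0 in line 2 and 38 and 0 in line 1, and auxin response genes 12 and 24 in line 2 and 8 and 10 in line 1. SAG12 had 168 ± 34.4 FPKM in line 2 and 136 ± 54.4 FPKM in line 1 with salt (SD, n = 3 each). Pterocarpan synthase 1 LotjaGi1g1v0277900 had 109.5 ± 4.64 FPKM in line 2 and 106 ± 25.6 FPKM in line 1. Tested directly, line 2 was higher than line 1 in 188 genes (0.92%) and lower in 167 (0.817%), or 1.74% in all, and none of the isoflavonoid, WRKY or receptor kinase genes was among them.

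Genes that did differ between the lines under salt included parts of the circadian clock. Of 22 clock genes 4 were higher and 2 lower in line 2 than in line 1, and 8 higher and 4 lower in line 2 than in WT. REVEILLE 6 LotjaGi5g1v0296400, a morning factor, had 12.2, 10.9 and 15.6 FPKM in line 2, 2.21, 2.66 and 4.39 FPKM in line 1 and 1.38, 2.51 and 0.931 FPKM in WT. APRR1 LotjaGi4g1v0251000, the clock protein TOC1, had 30.6, 33.6 and 34.5 FPKM in line 2, 12.6, 14.7 and 23.3 FPKM in line 1 and 8.12, 9.36 and 9.27 FPKM in WT. LNK3 LotjaGi3g1v0315400, named after a clock coactivator, had 13.8, 9.84 and 12.2 FPKM in line 2, 34.9, 27.3 and 30.1 FPKM in line 1 and 44.2, 52.9 and 43.9 FPKM in WT. In each of these genes all line 1 libraries lay on the WT side of all line 2 libraries. Against line 1 the log2 changes were 1.93 (SE 0.24, limma adjusted p = 3.09e-04), 0.99 (SE 0.15, limma adjusted p = 0.00193) and -1.34 (SE 0.15, limma adjusted p = 1.03e-04). Against WT they were 2.72 (SE 0.24, limma adjusted p = 3.15e-07), 1.83 (SE 0.15, limma adjusted p = 1.67e-07) and -1.94 (SE 0.15, limma adjusted p = 6.07e-08).

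The zinc finger factor DOF5.4 LotjaGi1g1v0209300 had 29.6, 40.6 and 36.3 FPKM in line 2, 5.05, 7.73 and 14.1 FPKM in line 1 and 2.86, 4.06 and 4.30 FPKM in WT. ZIFL1 LotjaGi3g1v0101900, a transporter of the ZINC INDUCED FACILITATOR family, had 5.402, 4.74 and 4.92 FPKM in line 2, 12.7, 12.4 and 12.6 FPKM in line 1 and 13.4, 11.7 and 12.9 FPKM in WT. Line 2 was thus alone in its level of ZIFL1, with line 1 inside the WT range. Against line 1 the log2 changes were 2.03 (SE 0.26, limma adjusted p = 3.97e-04) and -1.24 (SE 0.11, limma adjusted p = 1.45e-05). Proline dehydrogenase 1 had 71.3, 67.6 and 47.6 FPKM in line 1, against which line 2 was lower (limma adjusted p = 3.88e-04, log2 change -1.13 with SE 0.14), and PYL4 was lower than in line 1 too (limma adjusted p = 5.31e-04, log2 change -1.44 with SE 0.19). A gene described as an ADP-ribosylation factor GTPase-activating protein, LotjaGi2g1v0092300 (chromosome 2, 28274307 to 28286542), had 3.49, 3.58 and 3.04 FPKM in line 2, 12.3, 12.4 and 15.9 FPKM in line 1 and 11.9, 13.2 and 12.6 FPKM in WT. In control it had 3.85 ± 0.208 FPKM in line 2, 12.4 ± 1.70 FPKM in line 1 and 11.96 ± 1.00 FPKM in WT. It was therefore lower in line 2 with and without salt (with salt log2 change -1.76 against WT and -1.85 against line 1, SE 0.12, limma adjusted p = 2.15e-08 and 1.78e-07). These comparisons between lines were less steady than those with WT: 355 genes were called with all libraries, 141 without line 1 replicate 1, 183 without line 1 replicate 2 and 172 without line 2 replicate 3. With the lower library set alone 9 genes were called, and REVEILLE 6, APRR1, LNK3, DOF5.4, ZIFL1, PYL4 and proline dehydrogenase 1 were not among the calls.

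**Figure D5:**
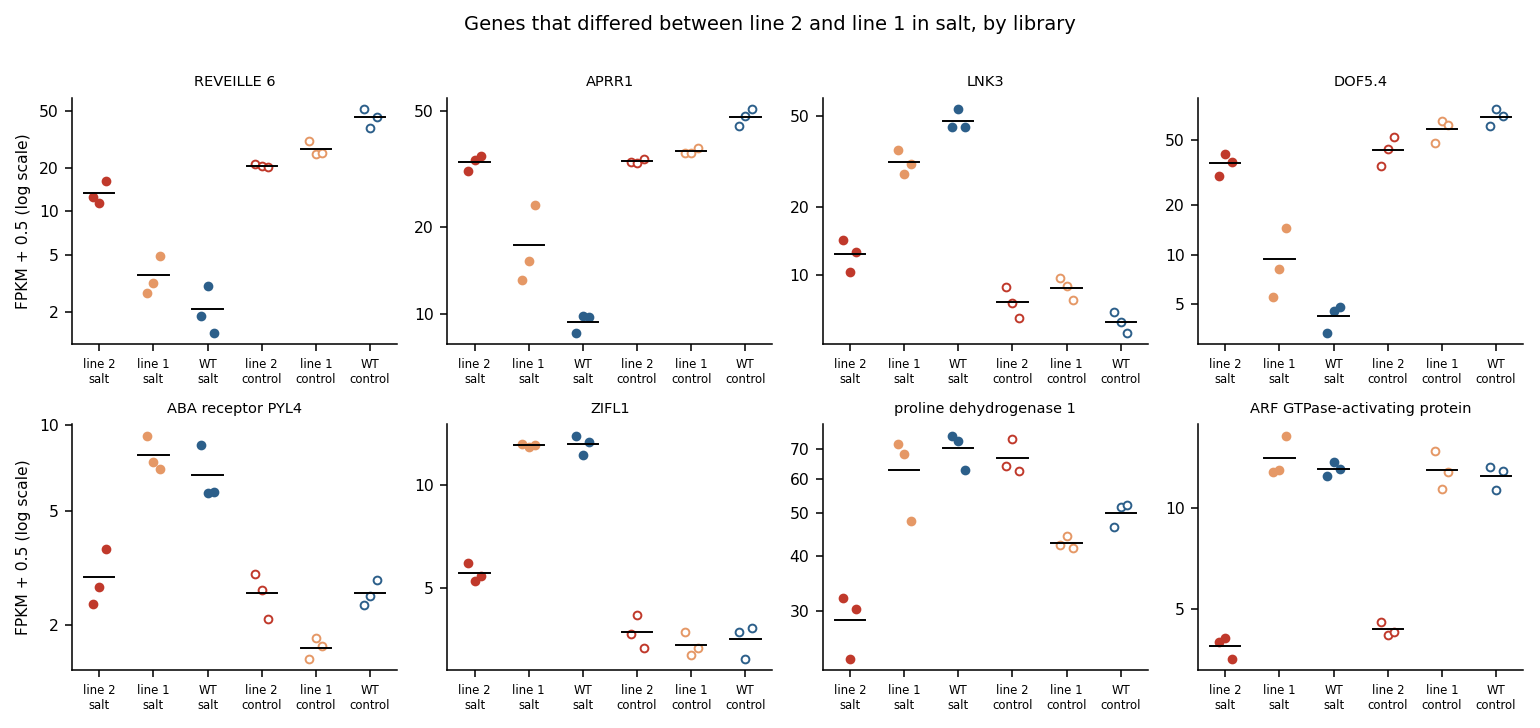
FPKM + 0.5 on a log scale for 8 genes that differed between line 2 and line 1 under salt, in all 6 groups, with salt groups filled and control groups open; points are libraries and bars means of 3. The ARF GTPase-activating protein is at 3.04 to 3.58 FPKM in line 2 with salt and at 3.69 to 4.08 FPKM in line 2 in control, below every library of line 1 and WT.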

How the data were processed

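FPKM of each gene in 18 libraries (6 groups of 3) were deposited by the authors beside gene length in bases. Per the labels' protocols, libraries came from poly(A) RNA with dUTP second-strand synthesis. The tools fastp, featureCounts 1.5.0-p3 and DESeq2 1.20.0 were used, per the submitters' processing notes. Which aligner, build and strand setting were used is not given in the sources used here. Overlapping, antisense or near-identical genes can therefore share reads. Coordinates come from the deposited table. Gene names are the table's Swiss-Prot names, or Pfam texts where these were lacking, given by similarity; 0 identifiers matched the RefSeq gene table. Multiplied by length, 100% of nonzero FPKM came out as whole reads, to within 0.05 of a read. These give the depths, which set the precision of low values.

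limma 3.58.1 in R 4.3.3 was fitted to log2(FPKM + 0.5) with a mean for each group, eBayes and a mean-variance trend, on 12 residual degrees of freedom. Genes with at least 1 FPKM in at least 3 libraries were tested. All tests were two-sided. Benjamini-Hochberg adjustment ran over the 20433 genes of a comparison, with a threshold of 0.05. The 4 main comparisons were line 2 against WT with salt, the same in control, their difference (the interaction) and line 2 against line 1 with salt. The same fit gave line 1 against WT with salt and salt against control in line 2 and in WT, for which no alternatives were run. The fit was run on simulated counts, drawn independently for each library with the same spread setting for every gene. There 183 of 195 changed genes were recovered, with 7 false calls. The simulation held no library sets, so it does not give the error rate in these data. Replicate numbers did not pair the libraries, since the deviations of same-numbered line 2 and WT salt libraries correlated at -0.153, -0.135 and 0.0802. No 2 libraries of a group agreed within sampling noise.

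The gene lists are patterns on the descriptions. The members and lists were chosen with earlier results of these data known. Named genes were the MYB36 genes, the 14 highest and 14 lowest changes with a description and a mean of at least 5 FPKM, the 3 list members with the smallest adjusted p, the extremes of the interaction and of line 2 against line 1, and the isoflavonoid and flavonoid core members. The text names a part of these. Genes whose call was lost in several alternatives were mostly passed over after their values were seen. Role groups within lists were drawn after the data were seen. Alternatives were other pseudocounts, filters, scalings, weights, a replicate block, a library-set term, the library sets alone, limma voom on the recovered reads and leaving out single libraries.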

Additional observations from a re-analysis of the deposited data

Results flagged for a closer look

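In 119 named genes the salt response of line 2 differed from that of WT by the interaction test of limma. The 6 highest and 6 lowest by the naming rule are given here. Values are the log2 salt change in line 2 minus that in WT, so that a positive one does not by itself mean that salt raised the gene in line 2. Chalcone synthase LotjaGi2g1v0446700 stood at 4.60 (SE 0.31, limma adjusted p = 2.21e-07), chalcone synthase 4 LotjaGi2g1v0450100 at 4.59 (SE 0.44, limma adjusted p = 5.09e-06) and phenylalanine ammonia-lyase 1 LotjaGi3g1v0071500 at 4.51 (SE 0.63, limma adjusted p = 1.80e-04). The ethylene-responsive factor gene ERF098 LotjaGi5g1v0180400 stood at 4.93 (SE 0.36). 2-hydroxyisoflavanone synthase LotjaGi4g1v0063900 stood at 4.37 (SE 0.40) and 6'-deoxychalcone synthase LotjaGi4g1v0144700 at 4.23 (SE 0.43), the second losing its call with the upper library set alone (limma adjusted p = 0.0798).

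Negative values were found in ferritin-3 LotjaGi3g1v0197600, at -2.64 (SE 0.28, limma adjusted p = 1.43e-05), ammonium transporter 1 member 2 LotjaGi5g1v0205600, at -2.47 (SE 0.49, limma adjusted p = 0.00358), LNK3 LotjaGi3g1v0315400, at -2.23 (SE 0.21, limma adjusted p = 3.67e-06), and carboxylesterase 1 LotjaGi2g1v0152500, at -2.21 (SE 0.32, limma adjusted p = 2.56e-04). The auxin-induced gene ARG7 LotjaGi3g1v0516600 stood at -3.02 (SE 0.81, limma adjusted p = 0.0271), and this call was lost in 11 of 26 alternatives, at limma adjusted p of up to 0.229. Cytochrome P450 71D10 LotjaGi1g1v0018100_LC stood at -2.24 (SE 0.42, limma adjusted p = 0.00242), lost in 3 of 26 alternatives at limma adjusted p of up to 0.234.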

How the results depend on the processing

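For line 2 against WT in salt, 5125 genes were called, and leaving out any 1 library gave 3965 to 4866. The count was 3327 with a mean FPKM of at least 5, 3331 with only the groups compared, 2726 with the lower library set (2 libraries against 2) and 2535 with the upper set (1 against 1, whose spread is taken from the other groups). With quantile normalization, which moved the median of all genes by -0.08 on the log2 scale, 2412 genes were higher and 2973 lower, so that 44.8% of calls were higher in place of 59.4%. For the salt response of line 2 minus that of WT, 1759 genes became 2859 with array weights, 2827 with the library set as a term, 627 and 487 with the lower and upper set, and 1257 to 1741 without 1 library. For line 2 against WT in control, 2570 became 6101, 4230, 947 and 1301 in the same settings and 1685 to 2382 without 1 library: 1685 without WT replicate 3, 1687 without line 2 replicate 2 and 1708 without line 2 replicate 3. Scaled to the gene total, 73.9% of these calls were higher in place of 57.4%. For line 2 against line 1 in salt, 355 became 1005, 564, 9 and 186 in the same settings, 40 with only the groups compared and 141 to 436 without 1 library. The replicate block gave 5044, 1700, 2521 and 337 genes for the 4 comparisons, and same-numbered libraries did not deviate together. No named call changed its direction in any alternative run. Of 197 named genes called against WT in salt 154 were called in every alternative that tested them, of 119 interaction calls 49 were, and of 26 calls against line 1 only 1 was, the ARF GTPase-activating protein. The causes of these shifts were not tested. The edgeR test was not run, since the deposited unit is FPKM, and voom used median-of-ratios library sizes in place of TMM factors. FPKM are relative within a library, and depth limits calls of genes under 1 FPKM.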

Other observations

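Some lists not described above are given here beside the 25.1% of all genes that were called. The heat shock list had 29.2% called, with 15 higher and 6 lower genes of 72, and 13 higher and 11 lower under quantile normalization. Of the 6 lower genes the count was 3 without WT replicate 2. A heat shock factor gene of it, HSF24 LotjaGi4g1v0105200, had 6.68, 7.66 and 5.73 FPKM in line 2 and 0.280, 0.327 and 0.561 FPKM in WT (limma adjusted p = 1.14e-06, log2 change 3.02 with SE 0.29). Cuticle, suberin and wax genes had 9 higher and 11 lower of 70, or 28.6% called. As single libraries were left out, the lower count was 6 without line 2 replicate 1 and 7 without WT replicate 1. A lipid-transfer protein gene of that list, LotjaGi6g1v0042700, had 117, 119 and 105 FPKM in line 2 and 3.31, 0.654 and 3.62 FPKM in WT (limma adjusted p = 4.69e-08, log2 change 5.44 with SE 0.40). Terpene genes had 7 higher and 7 lower of 35, or 40% called. The number of lower genes was 3 without WT replicate 3 and 4 without line 2 replicate 3. Alpha-farnesene synthase LotjaGi3g1v0546500, which makes a volatile, had 4.89, 4.78 and 5.23 FPKM in line 2 and 0.615, 0.898 and 1.43 FPKM in WT (limma adjusted p = 1.22e-05, log2 change 1.92 with SE 0.23). Retrotransposon polyprotein genes had 20 higher and 19 lower of 156 tested, near the shares of all genes for the higher ones, and 156 of the 1079 deposited entries passed the filter. This lower count became 12 without WT replicate 3. Under quantile normalization 17 were higher and 26 lower. Lists of seed and pollen genes had 1 higher gene each of 4 and 34, and 0 nodule genes passed.

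An assembled transcript without a description, on chromosome 1 from 131181668 to 131183526, was near 0 in line 2 and present in WT, with 0, 0 and 0.246 FPKM in line 2 and 5.999, 4.76 and 5.14 FPKM in WT with salt. Line 1 lay between them, at 2.10 ± 0.495 FPKM (SD, n = 3). The chloroplast-encoded ATP synthase subunit a gene had 29.2, 93.6 and 34.3 FPKM in line 2 and 26.2, 22.9 and 20.4 FPKM in WT (limma adjusted p = 0.0353, log2 change 0.97 with SE 0.32), and this call was lost without line 2 replicate 2, WT replicate 2 or WT replicate 3. These genes were chosen after their values were seen.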
